A study of Drosophila melanogaster with 19 samples.

Results

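Oxidative phosphorylation is the process by which mitochondria make most of a cell's ATP. Electrons from NADH enter at complex I and those from succinate at complex II, pass through complex III to complex IV, where oxygen is reduced, and complex V, the ATP synthase, uses the resulting proton gradient. Most subunits are encoded in the nucleus and a minority in the mitochondrial genome, except that complex II is wholly nuclear. A fly egg is laid with a large maternal store of mitochondria and of mRNAs for these proteins, and much of the maternal mRNA is removed around the mid-blastula transition, when the zygotic genome becomes active.

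The genes described are those whose name in the deposited table starts with ND- (complex I), Sdh (complex II), UQCR- (complex III), COX (complex IV) or ATPsyn (complex V). They were 81 of 17735 genes, with 40 in complex I, 7 in complex II, 8 in complex III, 11 in complex IV and 15 in complex V. The complex II genes include Sdhaf3, an assembly factor and not a subunit, and 18 of the 81 are paralogues whose name carries an L (ND-20L, COX4L). Polyadenylated RNA of single Drosophila embryos was sequenced, from flies whose histone H2AvD carries a red fluorescent tag used to stage the embryos. Control embryos, which were not injected, were in cycle 12 (C12), cycle 13 (C13), about 10 minutes into cycle 14 (C14E) or about 70 minutes into cycle 14 (C14L). The other embryos received double-stranded RNA against the mitotic cyclins CycA, CycB and CycB3, which stops the nuclei in interphase of cycle 12, and were collected 15, 30, 50 or 70 minutes after mitosis 11 (C12-15min, C12-30min, C12-50min, C12-70min). Because no control was injected, injection and arrest cannot be told apart, and C12-70min embryos are far younger than C14L embryos. In whole embryos, more RNA per nucleus and more nuclei cannot be told apart either.

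The table holds 1 column for each of the 8 conditions, the log2 of the authors' mean CPM (the share of the reads assigned to genes, scaled to a fixed total) plus 1. Each column averages 2 embryos, except that 3 embryos enter C13 and 3 enter C14E, which makes 18 embryos in all. Assigned reads per embryo, inferred from the decimals of the columns, ran from 35957713 to 57998963. In the conditions of 2 embryos the reads of each embryo were inferred for a gene where exactly 1 pair of whole read numbers gives the deposited mean, which held for 89.2% to 93.0% of the genes of at least 10 CPM, but for 65.0% of them in C12-70min. The embryos are called the deeper and the shallower by their read totals, since the columns do not say which labelled embryo is which. The targeted cyclins together had 8649 CPM in control C12 and 6576 CPM in the libraries labelled C12-15min, in which the targets were thus still abundant, against 155, 70.7 and 136 CPM at 30, 50 and 70 minutes. Marker lists of muscle, follicle cells and testis stayed at or below 2.83 summed CPM in every condition.

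Of the 81 genes, 59 had a mean of at least 10 CPM over the 8 conditions, the filter used for all counts, against 5577 of all genes. They were 31 genes of complex I, 5 of complex II, 5 of complex III, 7 of complex IV and 11 of complex V. All 18 paralogues were under the filter. The other 4 under it were ND-MNLL, UQCR-14, ND-B8 and ND-MWFE. ND-MNLL and UQCR-14 were listed at 0 in all 8 conditions, and annotated genes overlap 100% of their exon length, for ND-MNLL on the same strand (CG45089) and for UQCR-14 on the other (CG32576). Reads in such overlaps may go to neither gene, so these zeros do not show absence. ND-B8 stayed at or below 0.27 CPM with 15.4% of its exons overlapped, and ND-MWFE stayed between 0.50 and 1.94 CPM with 35.0% overlapped.

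Per kilobase of exon, the mean level over the 8 conditions was highest for ND-MLRQ, an accessory subunit named in complex I, at 679 CPM per kb. ATPsynC, which forms the rotating c ring of the ATP synthase, followed at 624 CPM per kb and ATPsynO, the OSCP subunit of its stalk, at 506 CPM per kb. At the low end were UQCR-6.4 at 19.3 CPM per kb, UQCR-C2, a core protein of complex III, at 20.8 CPM per kb and SdhA, the flavoprotein of complex II, at 22.8 CPM per kb. The range over the 8 condition means was under 2-fold for 40 of the 59 genes and over 4-fold for 7 of them, with a median of 1.77-fold. The 7 were UQCR-C2 (25.8-fold), SdhD (6.79-fold), ND-B16.6 (5.66-fold), ATPsyngamma (5.34-fold), SdhA (4.75-fold), ND-24 (4.59-fold) and ND-ACP (4.54-fold).

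The condition with the highest abundance was C13 for 44 of the 59 genes, and the lowest was control C12 for 26 and C12-70min for 16. The highest and lowest conditions were not counted over all genes. From C12 to C13, 29 of the 59 genes were higher and 1 was lower by more than 1.5-fold in the condition means, against 10.5% of all genes higher and 25.9% lower. The member median was 0.58 on the log2 scale, against -0.14 for all genes over the filter. Above control C12 were 53 of the 59 genes, against 41.1% of all genes. The difference was spread over the complexes, with medians of 0.61 in complex I, 0.42 in complex II, 0.43 in complex III, 0.52 in complex IV and 0.58 in complex V. ND-15, an accessory subunit of complex I, had the largest, from 69.5 to 146 CPM. SdhA was the gene that was lower, from 118 to 74.7 CPM. The rise was not particular to these genes. Past 1.5-fold, 68 of 84 cytosolic ribosomal protein genes over the filter were higher in C13 and 0 lower (median 0.76). Of 62 mitochondrial ribosomal protein genes 23 were higher and 3 lower (0.49). Of 8 respiratory genes outside the naming rule 5 were higher and 1 lower (0.71). In contrast, 0 of 12 citric acid cycle and pyruvate dehydrogenase genes were higher and 2 lower.

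Short mRNAs had larger differences from C12 to C13 across the whole table. Across all 5546 genes with an annotated length, Spearman's rho between exon length and the log2 difference was -0.62, and across the 59 genes it was -0.48. Genes are not independent replicates, and every difference uses the same C12 and C13 libraries. All genes up to 888 bp, the median exon length of the 59, had a median difference of 0.62, and the 30 members up to that length had 0.66. Longer genes had a median of -0.21 in the table as a whole and of 0.44 among the members. The part of RNA or library quality in this difference was not tested, and C13 holds 3 embryos whose single values were not recovered, so no test of it was made.

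**Figure D1:**
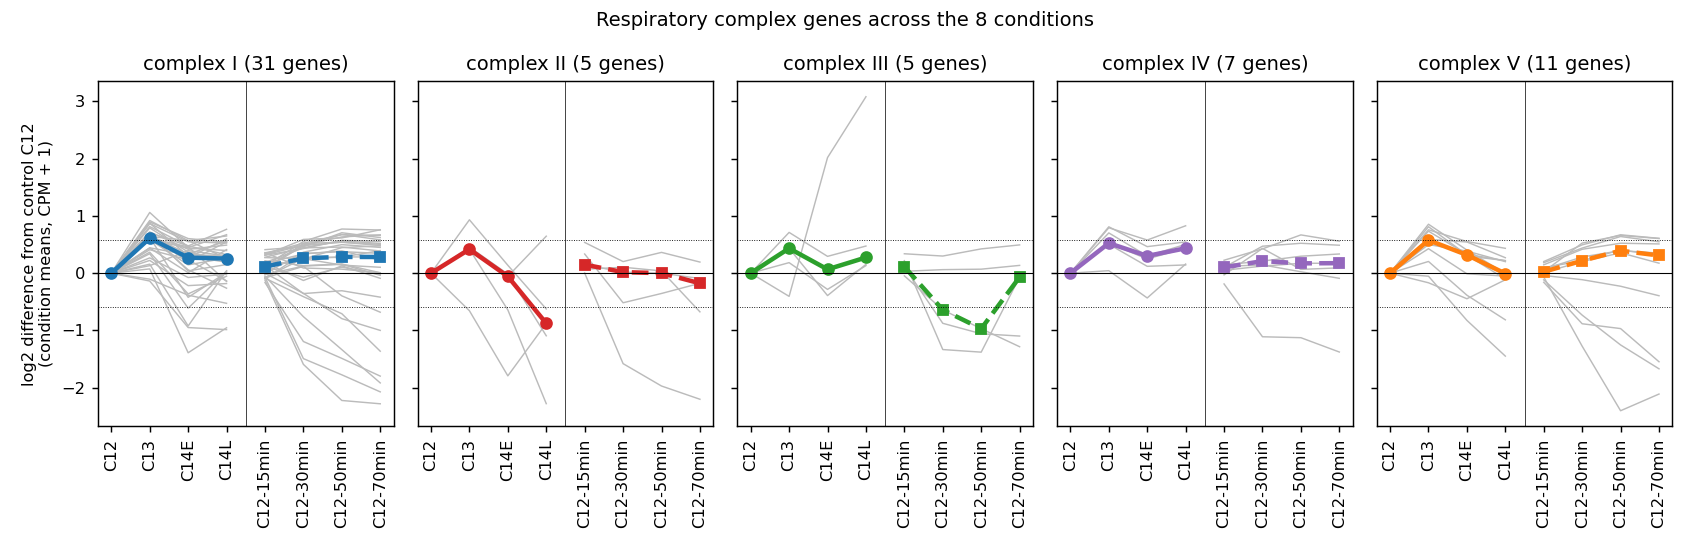
Log2 difference of each condition mean from control C12 (vertical axis, from log2 of CPM plus 1) for the 59 genes over 10 CPM, 1 panel per complex, with the 4 control conditions left of the vertical line and the 4 arrest times right of it. Grey lines are genes, coloured lines are complex medians and dotted lines mark 1.5-fold; the medians peak at 0.42 to 0.61 in C13, and in the arrest a minority of genes, COX7A alone in complex IV, lie far below the median of their complex.

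From C13 to C14E, 57 of the 59 genes were lower and 2 higher, against 36.8% of all genes higher. Past 1.5-fold, 15 were lower and 1 was higher (UQCR-C2), against 37.8% of all genes lower and 16.5% higher. The member median was -0.40 and that of all genes was -0.29. With differences centred on the median of the 3737 genes that had at least 10 CPM in every condition, 8 genes were lower and 1 was higher. The share of all genes past 1.5-fold was not counted on this centred scale, here or below. Against control C12, C14E had 2 genes higher and 7 lower, against 16.5% and 42.7% of all genes, and 8 and 5 after centring. From C14E to C14L, 6 genes were higher and 5 lower, against 32.6% and 25.1% of all genes.

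In control C14L most members lay within 1.5-fold of control C12, and a rise of UQCR-C2 and falls of SdhD and SdhB were the calls that held with any embryo left out. Past 1.5-fold, 7 of 59 genes were higher than in control C12 and 8 were lower, against 23.9% of all genes higher and 43.2% lower, and the member median was 0.22 against -0.31. The 3737 genes of at least 10 CPM in every condition had a median shift of -0.29 in this comparison. After centring on it 23 members were higher and 6 lower, without a share of all genes to set beside them. Of the 56 members whose reads were recovered in all 4 embryos, limma called 8 higher and 4 lower at an adjusted p under 0.05, against 17.0% and 35.2% of the genes tested. With each embryo shifted by the same median, it called 30 higher and 2 lower, against 24.1% and 28.4% of the genes tested. With each embryo centred on the 3828 genes recovered in all 12 embryos, it called 6 and 2, against 20.3% and 27.0%. The genes called lower were SdhD, SdhB, ND-51 and ND-ACP. Those called higher were UQCR-C2, COX8, ND-MLRQ, ND-15, ND-PDSW, ND-23, COX5A and ATPsynG. With any 1 of the 4 embryos left out, fewer members and fewer of all genes were called. The member median then ran from 0.15 to 0.36 and that of the genes tested from -0.39 to -0.26. UQCR-C2, SdhD and SdhB alone were called in each of those 4 fits. Centred on the 3828 genes, SdhB and ND-ACP lost their calls, as did ND-51 and ND-ACP with the shift.

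In the libraries labelled C12-15min, 0 of 59 genes passed 1.5-fold in either direction, against 5.02% of all genes higher and 1.08% lower. Limma called 0 of 53 genes in either direction (0.00% of all genes tested), and 0 had an unadjusted p under 0.05. The embryos differed from each other in several members. SdhA had 168 CPM in the deeper and 68.9 CPM in the shallower embryo, COX7A 118 and 52.2 CPM and UQCR-C2 27.5 and 9.73 CPM, whereas ND-MLRQ had 213 and 401 CPM.

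At C12-30min, 1 gene was higher and 12 were lower past 1.5-fold, against 13.2% and 39.0% of all genes. Limma called 2 of 56 higher (ND-42 and ATPsynG) and 4 lower (SdhA, ND-B16.6, ND-ACP and ND-24), against 5.65% and 24.1% of the genes tested. With 1 of the 4 embryos left out, the member median ran from 0.11 to 0.32, against 0.20 with all 4. The median of the genes tested ran from -0.31 to -0.14, against -0.25. No member call at this time held in every such fit. In most of these fits nearly all calls over all genes were lost too, so the loss is not a result about the members. With the embryos shifted by the 3737 genes, limma called 0 higher and 4 lower, against 2.08% and 27.8% of the genes tested. Centred on the 3828 genes, whose median level stood at -0.93 relative to C12 on the log2 scale, it called 40 higher and 0 lower. Of all genes tested, 42.0% were called higher and 15.8% lower on that scale. Their median stood at 0.68, against -0.25 uncentred, and the 3737 genes had a shift of 0.12. This centring thus set the median gene above C12, and SdhA, ND-B16.6, ND-ACP and ND-24 lost their calls on it.

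At C12-50min, 10 genes were higher and 14 lower past 1.5-fold, against 18.6% and 43.1% of all genes. After centring, 2 were higher and 14 lower, again without a share of all genes. Limma called 14 of 56 higher and 9 lower, against 14.1% and 35.8% of the genes tested. With the embryos shifted it called 4 and 9, against 7.83% and 38.0%. With them centred on the 3828 genes it called 44 and 2, against 48.7% and 20.3%. The median of the genes tested stood at 0.84 on that scale, against -0.33 uncentred. The 14 called higher without shift or centring were 9 subunits of complex I, 4 of complex V and COX5B, all by 0.50 to 0.77 on the log2 scale. When any 1 of the 4 embryos was left out, fewer members and fewer of all genes were called. The member median then ran from 0.21 to 0.30, against 0.28 with all 4. The median of the genes tested ran from -0.44 to -0.24. ND-24 and ND-ACP were called lower in each of these 4 fits. Centred on the 3828 genes, 7 of the 9 falls were lost, that of ND-24 among them (adjusted p = 0.329), and ND-75, ND-B17 and UQCR-C1 turned to higher values. The calls of ND-ACP (adjusted p = 0.04996) and ND-B16.6 (0.0219) held there.

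At C12-70min the falls that held with any embryo left out were those of ND-B16.6, SdhA, ND-ACP, ND-51 and ND-24. In the condition means, 7 genes were higher and 15 lower past 1.5-fold, against 20.7% and 48.8% of all genes, and the member median was 0.17 against -0.52. After centring, 18 were higher and 13 lower, again without a share of all genes. Only 28 members could be tested at this time, since reads of abundant genes are less often recovered there. Limma called 1 higher (ND-15) and 9 lower, against 8.84% and 53.1% of the genes tested. Genes low at C12-70min are thus tested more often. The tested members had a median of -0.05 and all tested genes of -1.14, so these counts do not stand for all 59 genes. With the embryos shifted, 6 were called higher and 7 lower, against 11.4% and 49.6% of the genes tested. With them centred on the 3828 genes, 18 and 4 were called, against 31.8% and 25.9%. The median of the genes tested was 0.11 on that scale, against -1.14 uncentred. The most even pair of read numbers where several fit was also taken, an alternative chosen after seeing the data. All 59 genes could then be tested, and 14 were called in each direction, against 18.1% higher and 42.8% lower of all genes. The genes called lower were ND-B16.6, SdhA, ND-ACP, ND-51, ND-24, COX7A, ND-B17, SdhD and ND-18. With any 1 of the 4 embryos left out, fewer members and fewer of all genes were called. The member median then ran from -0.15 to 0.11 and that of the genes tested from -1.30 to -1.01. The call of ND-15 was lost without any of these embryos, with an adjusted p of 0.0724 to 0.0863. Centred on the 3828 genes, 5 of the 9 falls were lost, that of ND-24 among them, and ND-18, ND-B17 and SdhD turned to higher values.

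Between successive arrest times few members differed. From C12-30min to C12-50min 0 genes were higher and 2 lower past 1.5-fold, against 3.42% and 17.7% of all genes, and from C12-50min to C12-70min 1 was higher and 2 lower, against 15.7% and 18.9%. Counted by embryos, both of a condition lay above both of C12, whichever pairs of read numbers are taken, for 31 of 59 genes in C14L and below them for 10, against 29.5% and 49.9% of all genes. The counts above and below were 10 and 2 after 15 minutes of arrest (8.10% and 4.62% of all genes), 28 and 12 after 30 (29.1% and 42.8%), 33 and 15 after 50 (31.4% and 47.9%) and 18 and 14 after 70 (22.2% and 51.7%). Between C12-70min and C14L, 5 genes lay above and 18 below (29.4% and 46.8%). Several pairs fit more of the genes in C12-70min, which widens their ranges. The C12-70min counts thus cannot be set against those of the earlier times.

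The nuclear core subunits of complex I differed by module in the arrest, and the module medians had the same order in the controls. The 3 of the N module, which takes electrons from NADH, are ND-75, ND-51, which binds NADH and FMN, and ND-24. ND-51 had 157 and 178 CPM in the deeper and shallower C12 embryos and 94.6 and 73.2 CPM in C14L. In the arrest it had 84.1 and 113 CPM after 30 minutes, 77.2 and 54.2 CPM after 50 and 32.9 and 54.2 CPM after 70. Every embryo of these later conditions was below both C12 embryos. From C12 to C12-70min ND-51 fell by 1.95 ± 0.32 on the log2 scale (limma, ± SE, adjusted p = 0.00159) and to C14L by 0.99 ± 0.31 (adjusted p = 0.0256, 0.0498 to 0.142 with 1 embryo left out).

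ND-24 had 58.5 and 69.6 CPM in C12 and 65.1 and 66.3 CPM in C14L. In the arrest it had 28.7 and 26.2 CPM after 30 minutes, 24.4 and 20.1 CPM after 50 and 16.0 and 19.5 CPM after 70. The C14L embryos lay between the C12 embryos and all 6 of the later arrested embryos lay below them. ND-24 fell by 1.80 ± 0.21 from C12 to C12-70min (adjusted p = 0.000933, and 0.112 centred on the 3828 genes). ND-75, the largest subunit, had 262 and 244 CPM in C12, 161 and 191 CPM in C14L and 190 and 120 CPM at C12-50min, a fall by 0.74 ± 0.25 at 50 minutes (adjusted p = 0.0425, up to 0.24 with 1 embryo left out), which turned to 0.43 above C12 when centred on the 3828 genes. Its mean at C12-70min was 97.9 CPM, and 2 pairs of read numbers fit that value.

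The 4 core subunits of the Q module, which passes electrons to ubiquinone, are ND-49, ND-30, ND-20 and ND-23. Their differences between C12-70min and control C12 ran from 0.01 to 0.55, where those of the N module ran from -1.91 to -1.36. The Q and N module medians were 0.64 and -0.10 in C13, 0.43 and -0.61 in C14E and 0.31 and -0.53 in C14L. In C14L the ranges overlapped, at -0.14 to 0.55 and -0.99 to 0.04. ND-49 had 143 and 130 CPM in C12, 214 and 177 CPM after 30 minutes of arrest and 190 and 208 CPM after 50, where it rose by 0.54 ± 0.17 (adjusted p = 0.0302, 0.069 to 0.149 with 1 embryo left out). ND-20 had 92.6 and 96.8 CPM in C12 and 132 and 151 CPM at C12-50min. ND-23 had 50.4 and 57.7 CPM in C12, 78.3 and 80.4 CPM in C14L and 57.4 and 51.2 CPM at C12-70min, so the C14L embryos stood above those of C12 and of C12-70min. The split into modules follows textbook structure and was made after the values were seen, and no test between modules was run.

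Among the accessory subunits of complex I, ND-B16.6 and ND-ACP had the lowest values relative to C12 in the arrest. ND-B16.6 is the fly counterpart of human GRIM-19. It lies at chrX:6349016-6350401 (dm6), and 17.5% of its exon length is overlapped by CG3847. It had 83.2 and 100 CPM in C12 and 71.6 and 117 CPM in C14L, against 32.3 and 27.2 CPM after 30 minutes of arrest, 27.6 and 10.2 CPM after 50 and 15.1 and 21.1 CPM after 70. It fell by 2.29 ± 0.44 to C12-70min (adjusted p = 0.00268), whereas the C14L embryos enclosed those of C12.

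ND-ACP, the mitochondrial acyl carrier protein, had 114 and 142 CPM in C12, 61.5 and 69.7 CPM in C14L and 28.9 and 30.5 CPM at C12-70min. It fell by 2.06 ± 0.32 in the arrest (adjusted p = 0.00143). Its fall by 0.95 ± 0.32 to C14L (adjusted p = 0.0359) was lost without any of the 4 embryos, at 0.069 to 0.171. Complex I as a whole was flatter: its median over the 31 genes was 0.25 in C14L and 0.28 at C12-70min. Above control C12 were 22 and 20 of them, against 41.0% and 39.3% of all genes. ND-42, an accessory subunit, rose from 181 and 168 CPM to 279 and 317 CPM at C12-50min (0.77 ± 0.17, adjusted p = 0.011, and 0.0288 to 0.0795 with 1 embryo left out).

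Complex II, succinate dehydrogenase, also works in the citric acid cycle. It was the complex with the lowest median in C14L, -0.88 (-0.18 at C12-70min), where 4 of its 5 genes over the filter were lower than in C12 past 1.5-fold and 1 was higher. SdhD, a membrane anchor, lies at chr3R:23759483-23760600, and 13.9% of its exon length is overlapped by PTPMT1. It had 86.9 and 87.7 CPM in C12 and 15.0 and 19.5 CPM in C14L. In the arrest it stayed at 98.8 and 88.9 CPM at 30 minutes and 96.9 and 82.7 CPM at 50 minutes, with 45.2 and 63.4 CPM at 70 minutes. All later arrested embryos were above both C14L embryos. SdhD fell by 2.29 ± 0.22 to C14L (adjusted p = 6.3e-05) and was higher by 1.59 ± 0.22 at C12-70min than in C14L (adjusted p = 0.00107), both called with any 1 embryo left out. Its fall by 0.69 ± 0.22 from C12 to C12-70min (adjusted p = 0.0227) reached 0.159 with 1 embryo left out and turned to 0.56 above C12 when centred on the 3828 genes.

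SdhB, the iron-sulphur subunit, had 148 and 133 CPM in C12 and 58.3 and 72.3 CPM in C14L, a fall by 1.10 ± 0.17 (adjusted p = 0.00111, and 0.0534 centred on the 3828 genes). At C12-50min it had 150 and 131 CPM, within 0.01 of C12 on the log2 scale (SE 0.17), and its mean at C12-70min was 132 CPM. SdhA had the reverse order. It had 108 and 129 CPM in C12 and 62.4 and 65.6 CPM in C14L. After 30, 50 and 70 minutes of arrest it had 22.1 and 55.7, 32.8 and 26.1, and 27.95 and 22.0 CPM. It fell by 2.20 ± 0.48 to C12-70min (adjusted p = 0.0043), and all 6 later arrested embryos were below both C14L embryos. Against C14L, C12-70min was lower by 1.33 ± 0.48 (adjusted p = 0.0445, 0.104 to 0.165 with 1 embryo left out). SdhC, the other anchor, had 28.1 and 42.5 CPM in C12, 56.3 and 55.1 CPM in C14L and 24.1 and 38.0 CPM at C12-70min, and was called in no comparison. The 4 enzyme subunits, which are built into a single complex, thus had unlike courses: SdhB and SdhD were lowest in C14L, SdhA at C12-70min and SdhC at C12-30min.

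Complex III held the gene with the widest range, and its median was 0.27 in C14L against -0.64, -0.97 and -0.07 after 30, 50 and 70 minutes of arrest. The median at 70 minutes is the value of UQCR-C2, up from -1.38 at 50 minutes. UQCR-C1 went from -0.97 to -1.28 and UQCR-6.4 from -1.06 to -1.10, and UQCR-11 and UQCR-Q were above C12 at both times. UQCR-C2, 1 of the 2 large core proteins, lies at chr3L:16584124-16586111 and had 15.2 and 16.5 CPM in C12, 11.7 CPM in the C13 mean, 67.2 CPM in the C14E mean and 155 and 128 CPM in C14L. In the arrest it had 7.89 and 3.49 CPM after 30 minutes, 6.48 and 4.49 CPM after 50 and 13.1 and 17.1 CPM after 70. The C14L embryos stood above the others recovered, and the 30 and 50 minute embryos below both of C12. UQCR-C2 rose by 3.07 ± 0.51 from C12 to C14L (adjusted p = 0.00122) and was lower by 3.15 ± 0.51 at C12-70min than in C14L (adjusted p = 0.00205), both called with any 1 embryo left out.

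UQCR-C1, the other core protein, had 240 and 292 CPM in C12, 279 and 304 CPM in C14L, 171 and 170 CPM after 30 minutes of arrest and 165 and 106 CPM after 50. It fell by 0.997 ± 0.25 at 50 minutes (adjusted p = 0.016, 0.0148 to 0.101 with 1 embryo left out), which turned to 0.18 above C12 when centred on the 3828 genes (adjusted p = 0.532), and its mean at C12-70min was 109 CPM. Thus UQCR-C1 was abundant in C12 and UQCR-C2 was not, although their proteins sit side by side in the complex: the C12 means were 163 and 9.4 CPM per kb of exon. UQCR-Q, a small subunit, kept between 153 and 210 CPM in the 8 condition means, the narrowest range of all 59 genes at 1.37-fold. UQCR-6.4, with 40.5% of its exons overlapped by POSH, had 12.9 CPM in C12, 14.4 CPM in C14L and 5.49 CPM at C12-70min.

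**Figure D2:**
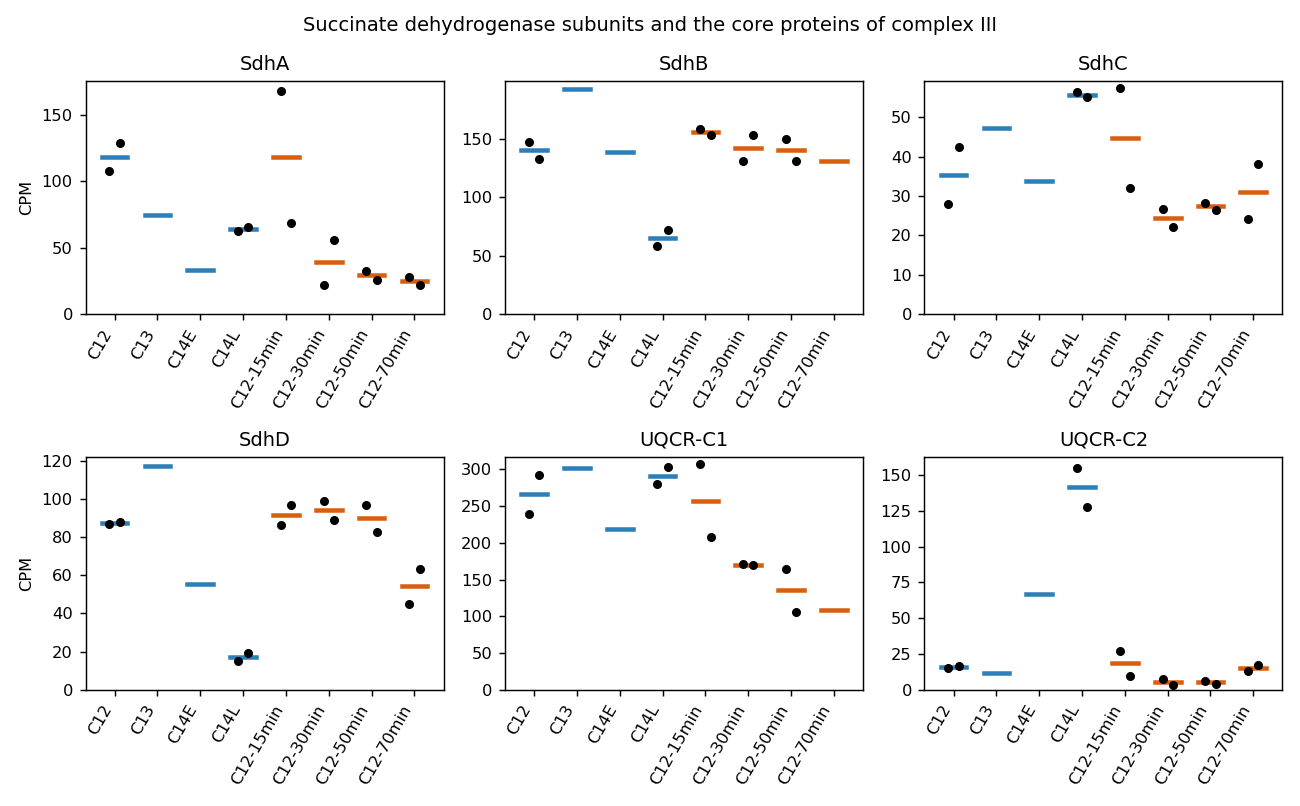
CPM (vertical axis, from 0) of the 4 enzyme subunits of complex II and both core proteins of complex III in each condition. Bars are the authors' means (blue for controls, orange for arrested embryos) and black points single embryos where exactly 1 pair of read numbers fits. SdhD falls from 86.9 and 87.7 to 15.0 and 19.5 CPM in C14L and UQCR-C2 rises to 155 and 128 CPM there; in the arrested embryos SdhD stands at 45.2 CPM or above and UQCR-C2 at 27.5 CPM or below.

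In complex IV, cytochrome c oxidase, the median was 0.43 in C14L and 0.17 at C12-70min, and COX7A was the exception to a flat course. It had 73.5 and 121 CPM in C12, 108 and 109 CPM in C14L and 30.8 and 42.8 CPM at C12-70min, lower by 1.35 ± 0.50 than in C12 (adjusted p = 0.0401, up to 0.214 with 1 embryo left out and 0.852 centred on the 3828 genes). The other 6 genes lay between -0.09 and 0.56 of control C12 at C12-70min. COX8, a small subunit, had 99.1 and 106 CPM in C12 and 165 and 201 CPM in C14L and rose by 0.82 ± 0.20 (adjusted p = 0.00951, 0.0219 to 0.0686 with 1 embryo left out). COX5A had 240 and 276 CPM in C12 and 336 and 361 CPM in C14L, a rise by 0.44 ± 0.14 (adjusted p = 0.0346, 0.0524 to 0.165 with 1 embryo left out). COX5B, at 164 and 174 CPM in C12, had 248 and 291 CPM at C12-50min. COX4 and COX7C, from 344 and 114 CPM in C12, stood at 323 and 144 CPM in the C12-70min means.

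Complex V held the largest share of the members' reads. ATPsynbeta, the catalytic subunit of the F1 head, had condition means of 1092, 972, 801 and 1008 CPM in C12, C13, C14E and C14L, and of 978, 592, 558 and 373 CPM at 15, 30, 50 and 70 minutes of arrest. ATPsynC had 1624, 1871, 1244 and 923 CPM in the controls and 1497, 977, 681 and 510 CPM in the arrest. No single pair of read numbers fits for these 2 genes, so they were left untested. The fit with the most even pair includes them, but it takes the smallest spread that the means allow. ATPsyngamma, the central shaft, had a C12 mean of 385 CPM. It had 124 and 157 CPM in C14L, and 135 and 182, 82.8 and 61.4, and 84.3 and 92.7 CPM after 30, 50 and 70 minutes of arrest. At C12-70min it was lower than in C14L by 0.65 ± 0.26, which was not called (adjusted p = 0.0711).

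ATPsynO and ATPsynG, by contrast, stood above C12 in the arrest. ATPsynO had 314 and 291 CPM in C12 and 484 and 472 CPM at C12-50min, a rise by 0.66 ± 0.18 (adjusted p = 0.0219, 0.0585 to 0.109 with 1 embryo left out). ATPsynG, subunit g, had 156 and 156 CPM in C12 and 236 and 260 CPM at C12-50min and rose by 0.67 ± 0.15 (adjusted p = 0.0119, 0.034 to 0.0829 with 1 embryo left out). The median of the 11 genes was -0.01 in C14L and 0.31 at C12-70min. The alpha subunit of F1, blw, is outside the naming rule. Its condition means were 1727 CPM in C12, 798 in C14L and 359 at C12-70min.

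Directly compared, C12-70min and C14L differed past 1.5-fold in 20 of the 59 genes, with 5 higher and 15 lower at C12-70min, against 26.2% and 42.2% of all genes. Limma called 1 of 29 tested genes higher, SdhD, and 9 lower, against 13.4% and 36.8% of the genes tested. Genes low at C12-70min are tested more often, since reads of abundant genes are less often recovered there. The tested members had a median of -0.37 and all tested genes of -0.81. Over the filter these medians were -0.14 and -0.24, so the limma counts do not stand for all 59 genes. With the embryos shifted, 1 was higher and 14 lower, against 11.1% and 42.8%. With them centred on the 3828 genes, 5 were higher and 3 lower, against 29.3% and 18.4%. The median of the genes tested was 0.11 on that scale, against -0.81 uncentred. The genes called lower were UQCR-C2, ND-B16.6, ND-24, COX7A, SdhA, ND-ACP, ND-B17, ND-51 and ND-23. Centred on the 3828 genes, 6 of these 9 falls were lost, and ND-23 turned to a higher value. UQCR-C2, ND-B16.6 and ND-24 held there and with any 1 embryo left out. The fits with 1 embryo left out called fewer members lower and fewer of all genes. Age and arrest cannot be told apart in this comparison.

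**Figure D3:**
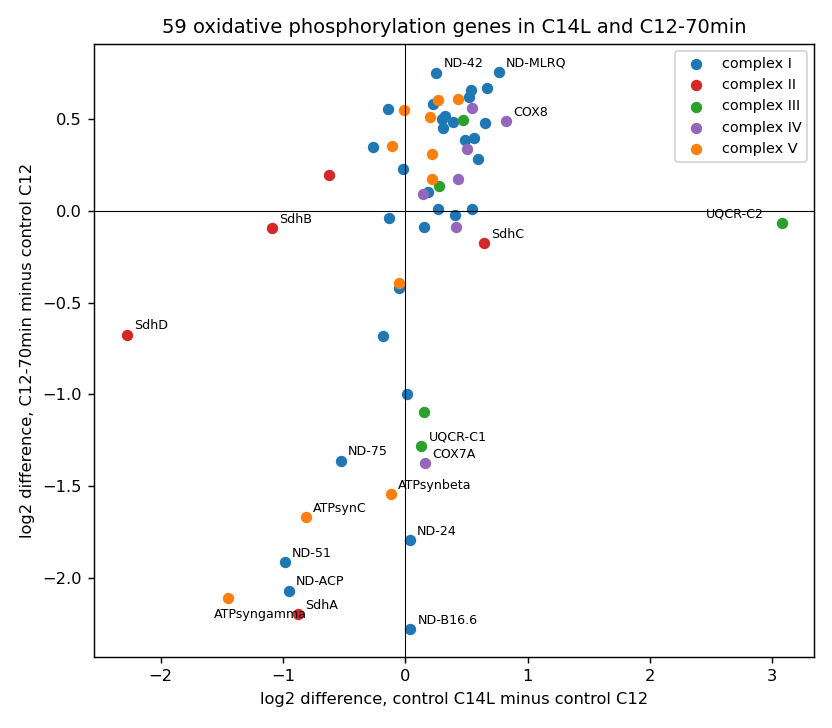
Log2 difference from control C12 in C14L (horizontal axis) and at C12-70min (vertical axis) for the 59 genes, from condition means and coloured by complex; both axes use the same C12 mean. A cluster of genes lies within 1.5-fold of 0 on both axes, UQCR-C2 lies alone at 3.08 and -0.07, SdhD and SdhB lie to the left, and a group with ND-B16.6, ND-24, UQCR-C1 and COX7A lies straight below 0.

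Because a CPM is a share of all reads, the members were also summed. The 81 genes held 10241, 13572, 10425 and 10272 CPM in C12, C13, C14E and C14L, and 10451, 9671, 9472 and 8733 CPM in the arrest. Their share of the reads was thus 1.02% in C12, 1.36% in C13 and 0.873% at C12-70min. Summed complex II was 399 CPM in C12, 221 CPM in C14L and 271 CPM at C12-70min. Summed complex V was 5083 CPM in C12, 4267 CPM in C14L and 3521 CPM at C12-70min, and complex I changed little between C12 and these conditions, with 2982, 3348 and 3166 CPM.

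The 13 protein-coding genes of the mitochondrial genome, whose products join complexes I, III, IV and V, were higher in the later conditions. They had 13473 CPM in C12, 22360 CPM in C14L and 26252 CPM at C12-70min. The 10 of them over the filter, all but mt:ATPase8, mt:ND4L and mt:ND6, were higher past 1.5-fold both in C14L and at C12-70min. Mitochondrial mRNAs carry short poly(A) tails, and the part of their capture in this difference was not tested. All rows of the mitochondrial genome took 3.08% of the reads in C12 and 6.62% at C12-70min.

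**Figure D4:**
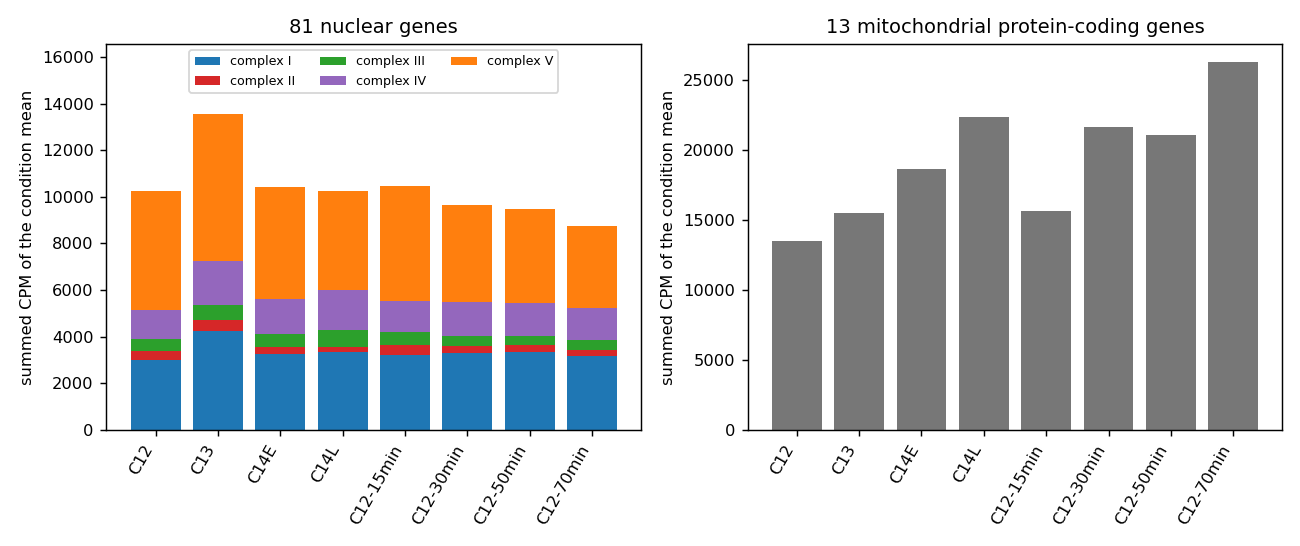
Summed CPM of the condition means (vertical axis, from 0) in the 8 conditions for the 81 nuclear genes, stacked by complex, and for the 13 mitochondrial protein-coding genes. The nuclear sum goes from 10241 CPM in C12 to 8733 CPM at C12-70min and the mitochondrial sum from 13473 to 26252 CPM.

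Other mitochondrial genes gave a setting for these values, from lists chosen with earlier results known, counted past 1.5-fold in the condition means. Of 9 genes outside the naming rule, for subunits and for cytochrome c, 8 were over the filter. In C14L 1 of them was higher (cype, a complex IV subunit, 106 to 203 CPM) and 1 lower (blw). Of 12 genes of the citric acid cycle and pyruvate dehydrogenase, 2 were higher and 8 lower in C14L, and 1 higher and 6 lower at C12-70min. Mdh2, malate dehydrogenase, had 69.1 CPM in C12, 4.85 CPM in C14L and 4.56 CPM at C12-70min. Fum1, fumarase, had 76.9, 10.8 and 6.81 CPM. Pdha, the alpha subunit of pyruvate dehydrogenase, had 180, 27.9 and 7.05 CPM. The 2 genes higher in C14L were Pdhb, its beta subunit, with 23.2, 75.7 and 21.0 CPM, and ScsbetaG with 61.0, 99.5 and 88.8 CPM. The 1 higher at C12-70min was Nc73EF, with 297, 182 and 463 CPM.

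Of 6 genes for carriers and channels, 4 were over the filter. The ADP/ATP carrier sesB had 1506 CPM in C12, 1928 CPM in C14L and 2743 CPM at C12-70min, and porin, the channel of the outer membrane, had 1126, 893 and 495 CPM. Of 10 genes of mitochondrial DNA maintenance and of respiratory gene control, 6 were over the filter, and 1 was higher and 4 lower in both C14L and C12-70min. The RNA polymerase mtRNApol was among the lower ones, with 102, 2.99 and 7.97 CPM, whereas TFAM, which packages mitochondrial DNA, had 164, 137 and 197 CPM. Of 62 mitochondrial ribosomal protein genes over the filter, 10 were higher and 13 lower in C14L, and 3 higher and 21 lower at C12-70min. These shares are read against the 23.9% and 43.2% of all genes in C14L and the 20.7% and 48.8% at C12-70min.

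Among the paralogues, a few that were near 0 in C12 had reads later. ATPsynbetaL had 0.07 CPM in the C12 mean and 0.87 CPM in C14L, and 5.76 and 11.7 CPM in the embryos of C12-70min. SdhBL had 0.12 CPM in C12, 6.62 and 5.66 CPM in C14L and 8.86 and 3.21 CPM at C12-70min. ND-51L1 had 0 reads in both C12 embryos, 0.55 and 0.84 CPM in C14L and 4.09 and 3.54 CPM at C12-70min. At this depth 3 reads correspond to 0.0517 to 0.0834 CPM per embryo. SdhAL reached 2.48 CPM and COX7AL 1.26 CPM, and every other paralogue stayed under 1 CPM in all 8 conditions.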

How the data were processed

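The authors trimmed the reads with Trim Galore 0.6.0, aligned them to dm6 with STAR 2.5.3a, counted unique alignments on genes with featureCounts (Subread 1.6.0) and computed CPM with DESeq2; whether counting used strand is not given in the sources used here. They deposited log2 of the mean CPM plus 1, with 9 decimals, per condition. Of the 19 labelled embryos the authors used 18, without 1 of control C12. The members, lists and tests were chosen with earlier results of these data known.

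Differences were taken on the deposited log2 scale with a pseudocount of 1, among genes with a mean of at least 10 CPM over the 8 columns, and counted past 1.5-fold. Embryo reads were inferred from the decimals, up to 2000 CPM, as the single pair of whole numbers that gives the deposited mean. Conditions of 3 embryos were not solved. These CPM entered limma 3.58.1 (R 4.3.3, eBayes with trend, 1 fit of 12 embryos, two-sided) as log2 of CPM plus 1, with Benjamini-Hochberg adjustment over all genes tested in a contrast. P-values measure only the spread between these embryos, and counting error is not modelled apart. In simulated embryos, 29306 of 29306 single solutions were right. The simulation gave all genes the same fixed spread, left out the most abundant genes and changed genes in C14L only. For C14L against C12 the fit called 84 of 87 genes raised and 87 of 96 lowered 2-fold there, with 9 false calls among 5032 genes. In the sequenced embryos it called 832 of 4901 genes higher and 1724 lower in this contrast. Its rates of detection and of false calls in the sequenced embryos were not tested. Python 3.11.15, numpy 2.4.6, pandas 2.3.3, scipy 1.17.1 and matplotlib 3.10.9 were used. Positions, lengths and overlaps come from Ensembl 115 (dm6), matched for 99.4% of genes. Named genes were core subunits listed beforehand, the highest and lowest member of each complex, the 5 largest rises and falls to C14L and C12-70min, members under the filter, the 5 largest limma calls in each direction and the listed genes; other called members, ND-30, the paralogues' order and the C12-15min embryo pairs were named after their values were seen.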

Additional observations from a re-analysis of the deposited data

How the results depend on the processing

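The scale, the fold threshold and single embryos each moved many results. Pseudocounts of 0.1 and 0.001 and the listed genes outside the rule moved no count by over 1.5 times. They moved no median by more than the spread between embryos. Centring moved the differences of 27 of 68 named genes by more than that spread. Below, counts are members higher than control C12 unless said otherwise, and minutes are those of the arrest. For the condition means, shares of all genes were counted at the main settings only.

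Without a filter on low values there were 6 in C14E, 14 in C14L, 1 at 15 minutes, 2 at 30 minutes and 12 at 70 minutes, 4 in C14E against C13, 2 at 50 against 30 minutes, 5 at 70 against 50 minutes and 8 at 70 minutes against C14L. With a mean of at least 50 CPM there were 1 in C14E, 0 in C14E against C13, 3 in C14L against C14E and 0 at 70 against 50 minutes. Without mitochondrial rows there were 5 in C14E and 11 at 70 minutes.

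Centred on the 3737 genes, there were 8 in C14E, 23 in C14L, 0 at 30 minutes, 2 at 50 minutes and 18 at 70 minutes, and 8 members were lower in C14E against C13, 3 in C14L against C14E and 1 at 70 against 50 minutes. Medians of complexes I to V in C14L became 0.54, -0.59, 0.56, 0.72 and 0.28. The complex I median became 0.14 at 30 minutes, 0.16 at 50 minutes and 0.41 at 70 minutes, and that of complex V 0.44 at 70 minutes. With paralogues and low members included, which adds genes at 0, the complex III median became 0.092 in C13, 0 at 30 minutes and 0 at 50 minutes, that of complex V 0.43 in C13 and 0.17 at 70 minutes, that of complex II -0.62 in C14L and that of complex I 0.16 at 70 minutes.

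Past 2-fold, members higher and lower were 1 and 0 in C13, 1 and 2 in C14E, 1 and 3 in C14L, 0 and 7 at 30 minutes, 0 higher at 50 minutes and 0 higher at 70 minutes. There were also 5 lower in C14E against C13, 1 higher and 2 lower in C14L against C14E, 1 lower at 50 against 30 minutes, 0 lower at 70 against 50 minutes and 1 higher at 70 minutes against C14L. Past a ratio of 5 to 4 they were 45 and 2 in C13, 21 and 14 in C14E, 21 higher in C14L, 7 at 15 minutes, 21 at 30 minutes, 26 at 50 minutes and 24 at 70 minutes. There were also 39 lower in C14E against C13, 14 higher and 9 lower in C14L against C14E, 9 lower at 50 against 30 minutes, 5 lower at 70 against 50 minutes and 10 higher at 70 minutes against C14L.

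In limma, the 4 embryos of each contrast alone gave 13 higher in C14L, 0 higher and 2 lower at 30 minutes, 3 higher at 70 minutes and 2 higher at 70 minutes against C14L. A filter of 1 CPM gave 0 higher at 30 minutes, 5 at 70 minutes and 2 against C14L, and no trend gave 5 higher in C14L, 0 at 30 minutes and 3 at 50 minutes. Centring on the 3828 genes recovered in all 12 embryos gave 2 lower in C14L, 40 higher and 0 lower at 30 minutes, 44 and 2 at 50 minutes, 18 and 4 at 70 minutes and 5 and 3 against C14L. The shift by the 3737 genes, added after seeing the data, gave 30 higher and 2 lower in C14L, 0 higher at 30 minutes, 4 at 50 minutes and 6 at 70 minutes, and 14 lower against C14L. The most even pair, also added later, gave 14 and 14 at 70 minutes and 6 and 15 against C14L. Centred on the 3828 genes, the median of the genes tested stood above C12, at 0.68 after 30 and 0.84 after 50 minutes of arrest. The causes of these changes were not tested.

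With 1 embryo left out, its lone partner being assumed to vary like the other conditions, C14L had 1 to 3 higher and 2 to 3 lower, 15 minutes of arrest 0 to 0 of each, 30 minutes of arrest 0 to 6 and 0 to 3, 50 minutes of arrest 0 to 3 and 2 to 8, 70 minutes of arrest 0 to 0 and 5 to 7, and 70 minutes of arrest against C14L 1 to 1 and 3 to 5. Most of these fits also called fewer of all genes. No paired analysis was possible because the deposited columns are condition means that carry no replicate numbers. The planned description of promoter motifs was not run. Depth limited the abundant genes: embryo reads of ATPsynbeta and ATPsynC were not recovered.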
